A study of Sus scrofa with 8 samples.

Results

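Secreted Wnt antagonists are extracellular proteins that keep Wnt ligands from signalling, and the 10 of them described here are FRZB, SFRP1, SFRP2, SFRP4, SFRP5, WIF1, DKK1, DKK3, SOST and NOTUM. They were found by gene symbol, and all 10 were present among the 18898 genes of the authors' deposited table. The libraries come from condylar cartilage cells of the temporomandibular joint (the jaw joint) of pigs, all of genotype WT. The Osteoarthritis group holds 4 libraries and the Control group holds 4. Per the labels' protocols, osteoarthritis was modelled surgically with a 5.0 mm punched hole in the articular disc, the fibrous pad above the condyle. The same surgical text stands with every sample, and whether Control joints had a sham operation, the time after surgery, the age and the breed are not given in the sources used here. Libraries are called biological replicates, but whether each is from its own animal is not stated, and every p below therefore covers spread among these libraries, which may be technical in part. The title of the series names a Wnt inhibitory niche in cartilage and chondrocyte identity, and the comparison shown here asks how RNA of the secreted inhibitors differs between the groups.

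Wnt ligands are lipid-modified secreted proteins that bind a Frizzled receptor together with the co-receptor LRP5 or LRP6, which stabilises beta-catenin and switches on target genes. The antagonists act outside the cell in different ways. Secreted Frizzled-related proteins (FRZB and the SFRPs) and WIF1 bind the ligands, DKK1 and SOST bind the co-receptors, and NOTUM removes the lipid that Wnt ligands need. In cartilage, restraint of Wnt signalling is known to help chondrocytes keep their phenotype, and in bone, SOST from osteocytes is a well-known brake on bone formation.

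Total estimated counts were 11354200 to 25412939 per library. Protein-coding genes took 87.7 to 90.5% of counts in Osteoarthritis libraries, against 49.7 to 73.9% in Control libraries. Levels are therefore given as CPM (counts scaled to a common library total) after scaling by TMM, a factor that aligns the bulk of genes between libraries. TMM factors were 1.04 to 1.55 in Osteoarthritis libraries, 0.42 in Control 2 and 0.87 to 1.04 in the other Control libraries. A smaller factor raises the CPM, so scaling raised the values of Control 2 the most. As a check of the labelled tissue, COL2A1, the main cartilage collagen, averaged 57200 ± 43924 CPM in Osteoarthritis and 7413 ± 3073 CPM in Control (SD, n = 4 each). COL1A1, counted here among the fibroblast genes, lay above COL2A1 in every library. It averaged 103618 ± 23343 CPM in Osteoarthritis and 120414 ± 29921 CPM in Control (SD, n = 4 each). Markers of other cell types were also present, and some moved with the groups. Summed over 6 tested osteocyte genes, levels were 412 to 1173 CPM in Osteoarthritis libraries, against 42.3 to 821 CPM in Control libraries, where Control 1 and 3 lay at 42.3 and 42.4 CPM. Summed basal epithelial genes were at 4.19 to 7.28 CPM in Osteoarthritis, against 98.6 to 387 CPM in Control. Control 1 and 3 were the closest libraries of any group by the SD of their log2 differences (0.30, against 0.47 to 0.99 in the other 11 within-group pairs). The labels list them as separate samples and they were kept so. Their counts differed by more than counting noise, which does not show that they came from separate animals. Chi-square per degree of freedom was 30.1 for them, against 29.7 to 456 in the other 11 pairs. By this measure Osteoarthritis 1 and 2 (29.7) were about as close. In bulk RNA of this kind, fewer cells of a type and less RNA per cell cannot be told apart.

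FRZB was the 1 antagonist of 10 whose groups did not overlap, close to the 11.2% share of all genes. It was higher in every Osteoarthritis library than in any Control library. In the edgeR fit of 8 libraries its difference was the largest of the 10, although its adjusted p lay just above the 0.05 threshold. In limma-voom with sample weights, log2 fold changes of SOST (5.11), WIF1 (4.25) and DKK1 (3.71) exceeded that of FRZB (3.26). With Control 1 and 3 left out, SFRP2 (3.42) exceeded FRZB (2.23). WIF1, DKK1, SOST and DKK3 instead varied several-fold inside the Control group, where replicates 1 and 3 lay on one side and 2 and 4 on the other. By edgeR's quasi-likelihood test with Benjamini-Hochberg adjustment over 16020 genes, 0 of the 10 antagonists were called changed at an adjusted p under 0.05, beside 0.618% of all genes tested. At an unadjusted p under 0.05 it was 1 of 10 (FRZB), beside 15.2% of all genes. The 99 genes called were 36 higher and 63 lower in Osteoarthritis, and with library size as the sole scaling they were 186 higher and 28 lower. By other tools DESeq2 called 1 antagonist, beside 5.49% of all genes, limma-voom called 0, beside 0.743%, and with sample weights limma-voom called 4, beside 20.8%. The groups did not overlap for 1 of 10, beside 11.2% of all genes, and these divide into 5.69% higher and 5.52% lower. All 10 passed the filter on low counts, and the fitted fold change was above 0 for 8 of 10, beside 50.4% of all genes, with a median log2 fold change of 0.64, beside 0.0049 over all genes.

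**Figure D1:**
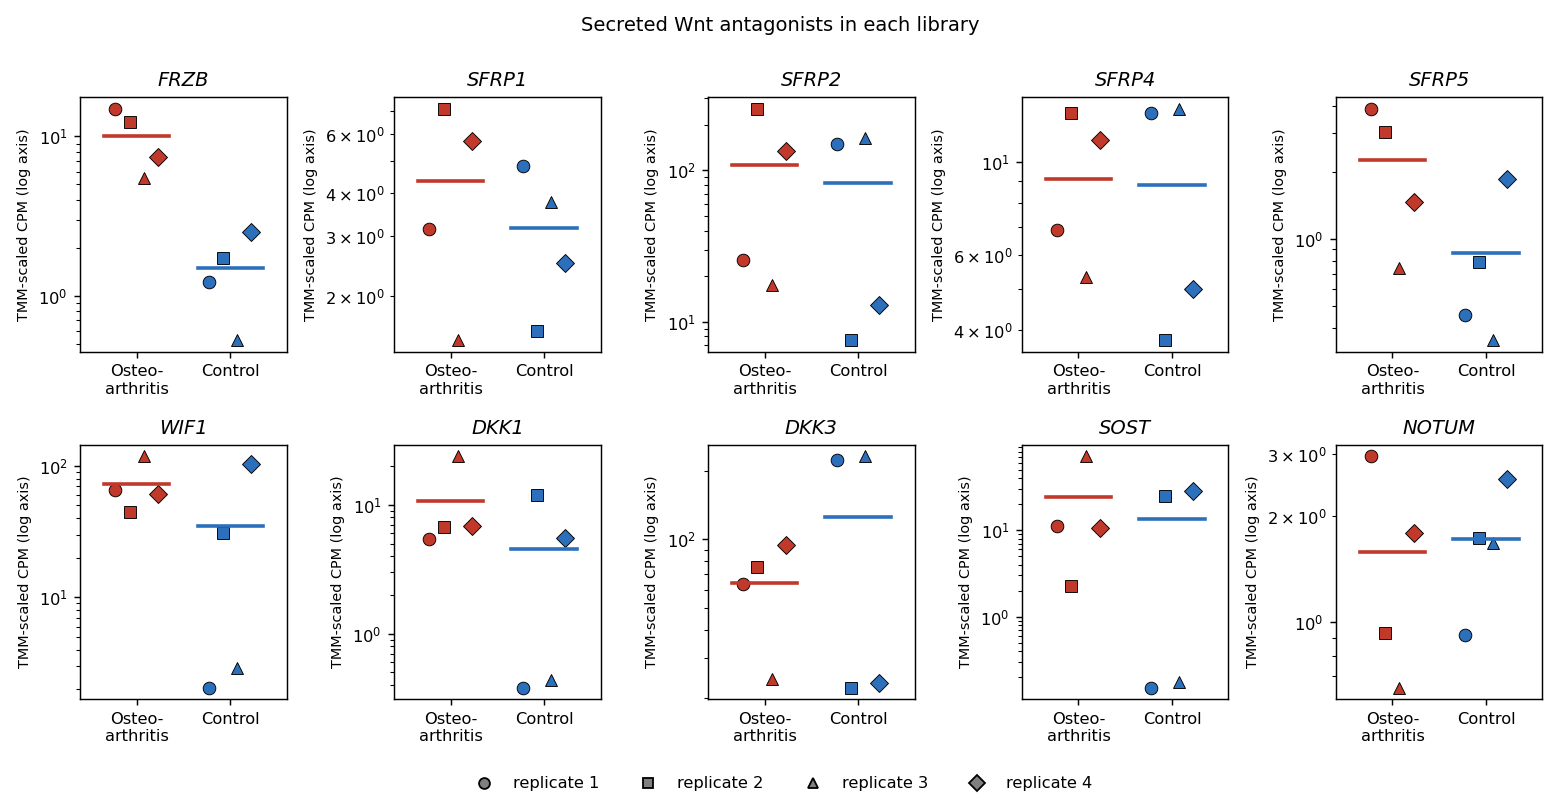
TMM-scaled CPM of each of the 10 antagonists, on a log axis, with 1 point per library (Osteoarthritis left, Control right; n = 4 each) and the marker shape giving the replicate. FRZB is the gene whose groups do not overlap (5.50 to 14.9 CPM in Osteoarthritis, 0.528 to 2.50 CPM in Control), and Control 1 and 3 sit apart from Control 2 and 4 for WIF1, DKK1, SOST, DKK3 and SFRP2.

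FRZB, also called SFRP3, is a secreted decoy for Wnt ligands first known from cartilage (chromosome 15, 88332856 to 88377275, Sscrofa11.1). It measured 14.9, 12.3, 5.50 and 7.43 CPM in Osteoarthritis replicates 1 to 4, against 1.22, 1.73, 0.528 and 2.50 CPM in Control replicates 1 to 4. The lowest Osteoarthritis library thus lay above the highest Control library. Means were 10.02 ± 4.31 CPM in Osteoarthritis and 1.496 ± 0.83 CPM in Control (SD, n = 4 each), a log2 fold change of 2.72 ± 0.49 (SE; edgeR adjusted p = 0.0502, unadjusted 3.5e-04). These levels rest on 242, 145, 186 and 278 estimated counts in Osteoarthritis, against 16, 11, 6 and 51 in Control, where so few counts limit the precision. FRZB also differed from the other antagonists in its effective length, the length over which its reads were spread. That length was 1644 to 1853 bases in Osteoarthritis libraries and 1313 to 2339 bases in Control libraries. With those lengths as offsets, an alternative added after seeing the data, the log2 fold change was 2.66 (edgeR adjusted p = 0.082). Without Control 4, the Control library with the most FRZB, it was 3.13 (edgeR adjusted p = 0.043), and over all 20 alternatives the log2 value stayed between 2.23 and 3.26 while the adjusted p ranged between 1.7e-05 and 0.23, with 6 of the 20 under the threshold. With Control 1 and 3 left out it was 2.23 (edgeR adjusted p = 0.075), and with both summed as 1 library it was 2.56 (edgeR adjusted p = 0.11).

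Chondrocyte markers lay on the same side as FRZB. All 17 tested chondrocyte genes had a log2 fold change above 0, with a median of 2.38. The lowest were the regulators SOX6 (0.011), SOX5 (0.13) and SOX9 (0.57), then MATN1 (1.31), each with an unadjusted edgeR p above 0.05. The SOX genes were thus nearly level between the groups or rose little. Summed levels were 22314 to 150390 CPM in Osteoarthritis libraries, against 8253 to 18370 CPM in Control libraries. COL2A1 was the largest part of that sum in every library. By edgeR 0 of the 17 were called at an adjusted p under 0.05 and 13 were higher at an unadjusted p under 0.05, while DESeq2 called 12, limma-voom 1, and its sample weights 13. With RLE scaling 16 of the 17 were above 0. All 6 hypertrophic chondrocyte genes, such as COL10A1 and IHH, were higher without overlap, beside 5.69% of all genes, with a median log2 fold change of 2.73. By edgeR 0 of these 6 were called and 6 had an unadjusted p under 0.05, while DESeq2 called 6, limma-voom 0, and its sample weights 6. Basal epithelial genes, of which 5 of 8 tested fell in Osteoarthritis (edgeR adjusted p under 0.05), differed between the same groups. The part of the chondrocyte and epithelial differences in the FRZB result was not tested. Per 1000 counts of COL2A1, FRZB had 0.142 to 0.429 counts in Osteoarthritis libraries and 0.0813 to 0.346 counts in Control libraries, so relative to that collagen the groups overlapped. This ratio was chosen after values were seen.

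SFRP5, another ligand decoy (chromosome 14, 109120382 to 109125655), was a low gene. It measured 3.87, 3.05, 0.739 and 1.47 CPM in Osteoarthritis replicates 1 to 4, against 0.459, 0.787, 0.352 and 1.86 CPM in Control replicates 1 to 4. Osteoarthritis 1 and 2 lay above every Control library, while Osteoarthritis 3 and 4 lay within the Control range. Its log2 fold change was 1.32 ± 0.67 (SE; edgeR adjusted p = 0.39), resting on 4 to 38 counts per Control library. It was 2.11 without Control 4 and 0.71 with Control 1 and 3 left out.

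SFRP2, SFRP4 and SFRP1 encode ligand decoys of connective tissue, and they shared a pattern across libraries rather than between groups. SFRP2 (chromosome 8, 75337311 to 75345926), the most abundant antagonist per length in both groups, measured 25.5, 256, 17.6 and 134 CPM in Osteoarthritis replicates 1 to 4, against 149, 7.56, 163 and 12.8 CPM in Control replicates 1 to 4. Osteoarthritis 2 and 4 and Control 1 and 3 were the high libraries, so each group held both high and low samples. Its log2 fold change was 0.38 ± 1.102 (SE; edgeR adjusted p = 0.91), and with Control 1 and 3 left out it was 3.42 (edgeR adjusted p = 0.21).

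SFRP4 (chromosome 9, 108404314 to 108414335), known from human genetics for its part in cortical bone, measured 6.89, 13.0, 5.32 and 11.2 CPM in Osteoarthritis replicates 1 to 4, against 13.1, 3.78, 13.4 and 5.00 CPM in Control replicates 1 to 4. SFRP1 (chromosome 17, 10436414 to 10489773) measured 3.14, 7.11, 1.48 and 5.72 CPM in Osteoarthritis, against 4.82, 1.57, 3.78 and 2.50 CPM in Control. The same 4 libraries were the highest for SFRP4 and for SFRP2, and Osteoarthritis 2 and 4 with Control 1 and 3 led for SFRP1 too. Fold changes on the log2 scale were 0.041 ± 0.46 for SFRP4 (edgeR adjusted p = 0.98) and 0.44 ± 0.51 for SFRP1 (edgeR adjusted p = 0.73), both smaller than their standard errors. With Control 1 and 3 left out they were 1.07 for SFRP4 (edgeR adjusted p = 0.22) and 1.08 for SFRP1 (edgeR adjusted p = 0.38).

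WIF1 (Wnt inhibitory factor, chromosome 5, 29450442 to 29543913) binds Wnt ligands through a domain of its own. It measured 65.4, 44.7, 118 and 61.5 CPM in Osteoarthritis replicates 1 to 4, against 2.06, 31.0, 2.90 and 103 CPM in Control replicates 1 to 4. All 4 Osteoarthritis libraries lay above Control 1, 2 and 3, and Control 4 lay above Osteoarthritis 1, 2 and 4. The log2 fold change was 1.06 ± 1.03 (SE; edgeR adjusted p = 0.67), and it was 2.65 without Control 4 and 0.15 with Control 1 and 3 left out.

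DKK1 and SOST both act on the co-receptors LRP5 and LRP6. DKK1 (Dickkopf, chromosome 14, 97487854 to 97490118) measured 5.41, 6.68, 23.8 and 6.86 CPM in Osteoarthritis replicates 1 to 4, against 0.382, 11.8, 0.440 and 5.49 CPM in Control replicates 1 to 4. SOST (sclerostin, chromosome 12, 19354912 to 19360348) measured 11.07, 2.28, 71.2 and 10.6 CPM in Osteoarthritis, against 0.153, 24.7, 0.176 and 28.1 CPM in Control. For both genes Osteoarthritis 3 was the highest library of its group, and Control 1 and 3 the lowest of all 8. SOST stood at 2 counts in each of these Control libraries, which lies below the floor of 3 counts. DKK1 stood at 5 counts in each of them, just above that floor. Fold changes on the log2 scale were 1.29 ± 0.98 for DKK1 (edgeR adjusted p = 0.57) and 0.85 ± 1.42 for SOST (edgeR adjusted p = 0.82). Without Osteoarthritis 3, that of SOST was -0.72, and with Control 1 and 3 left out it was -0.096. That of DKK1 was 0.53 without Osteoarthritis 3, 2.30 without Control 2, and 0.39 with Control 1 and 3 left out.

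DKK3, a Dickkopf relative that does not share the co-receptor binding of DKK1 (chromosome 2, 47385244 to 47444664), ran the other way. It measured 63.3, 75.8, 24.2 and 94.4 CPM in Osteoarthritis replicates 1 to 4, against 223, 22.2, 233 and 23.3 CPM in Control replicates 1 to 4. All 4 Osteoarthritis libraries lay between the Control libraries, above Control 2 and 4 and far below Control 1 and 3. The log2 fold change was -0.96 ± 0.80 (SE; edgeR adjusted p = 0.61), and with Control 1 and 3 left out it was 1.54, so its direction rested on those libraries.

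NOTUM, the secreted enzyme that removes the lipid from Wnt ligands (chromosome 12, 1033814 to 1044412), was among the lowest antagonists in these libraries. It measured 2.95, 0.931, 0.650 and 1.79 CPM in Osteoarthritis replicates 1 to 4, against 0.917, 1.73, 1.67 and 2.55 CPM in Control replicates 1 to 4. The groups covered nearly the same range, and the log2 fold change was -0.13 ± 0.53 (SE; edgeR adjusted p = 0.93).

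**Figure D2:**
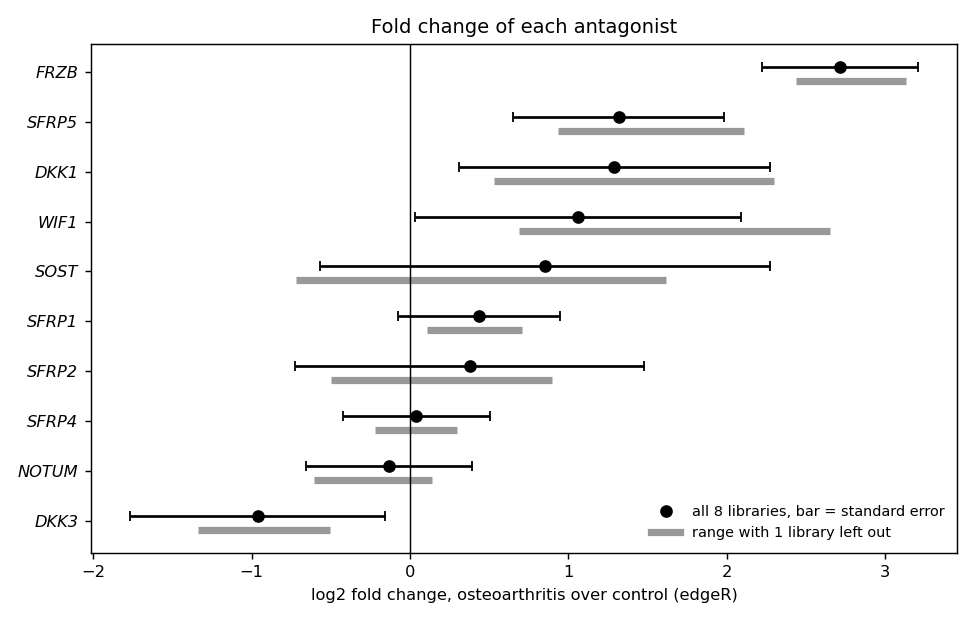
Fitted log2 fold change of each antagonist, Osteoarthritis over Control, with its standard error as the thin bar and the range with 1 library left out as the grey band (edgeR; n = 4 each). FRZB at 2.72 lies farthest from 0, DKK3 and NOTUM lie below 0, and the standard error bars of SFRP1, SFRP2, SFRP4, SOST and NOTUM cross 0.

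Between genes, levels can be compared only per length (CPM over effective length in kilobases). In Osteoarthritis the mean order on this scale was SFRP2 (54.1 CPM per kilobase), WIF1 (21.1), SOST (12.1), DKK3 (11.0), DKK1 (6.81), FRZB (5.83), SFRP4 (5.67), SFRP5 (1.45), SFRP1 (1.06) and NOTUM (0.82). In Control it was SFRP2 (41.9), DKK3 (21.4), WIF1 (10.05), SOST (6.67), SFRP4 (5.49), DKK1 (2.85), FRZB (0.925), NOTUM (0.894), SFRP1 (0.772) and SFRP5 (0.549). The ranges of neighbours over the 4 libraries of a group overlapped at every step of both orders except between SFRP4 and SFRP5 in Osteoarthritis, and the first place changed between libraries. SFRP2 ranked first in 4 of the 8 libraries (Osteoarthritis 2 and 4, Control 1 and 3), SOST ranked first in Osteoarthritis 3 and Control 2, and WIF1 ranked first in Osteoarthritis 1 and Control 4. SOST ranked last of the 10 in Control 1 and 3.

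**Figure D3:**
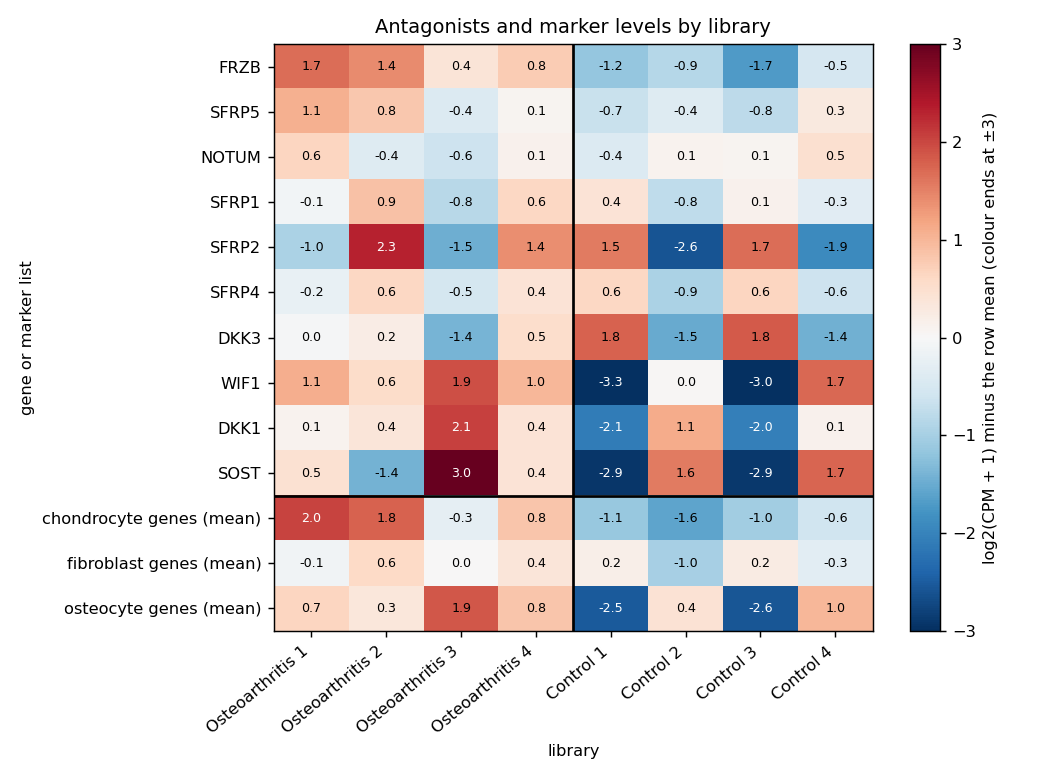
Level of each antagonist, and below the line the mean level of each marker list, in each library, as log2(CPM + 1) minus the mean of its row (Osteoarthritis 1 to 4 on the left, Control 1 to 4 on the right). Control 1 and 3 share a column pattern of low WIF1, DKK1 and SOST with high SFRP2, SFRP4 and DKK3, and the FRZB row is high in the Osteoarthritis columns.

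Each antagonist was then set against the mean log2(CPM + 1) of the tested chondrocyte (17), fibroblast (15) and osteocyte (6) genes over the 8 libraries. Of 30 correlations computed, 9 passed an adjusted p of 0.05 for Pearson's r. None of the 30 passed without the pair of libraries farthest from the median marker level, without Control 1 and 3, or after centring within groups. These settings leave few pairings to permute, so an adjusted p under 0.05 is hard to reach there. For FRZB with the chondrocyte level, r of 0.98 without Control 1 and 3 (exact permutation p = 0.0028) had an adjusted p of 0.083. After centring, the smallest adjusted p was 0.052 (exact permutation within groups). That none passed therefore does not show that the relations were lost. The 30 correlations are given as a description, since all points share library depth and composition.

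FRZB followed the chondrocyte genes. Pearson's r was 0.94 (exact permutation p = 0.00074, adjusted 0.0074) and Spearman's rho was 0.90 (exact permutation p = 0.0046, adjusted 0.046; n = 8). Without Osteoarthritis 1 and 2, the libraries with the most chondrocyte RNA, r was 0.84 (exact permutation p = 0.035), and without Control 1 and 3 it was 0.98 (exact permutation p = 0.0028). After centring within groups it was 0.75 (exact permutation p = 0.068). Taken gene by gene, r of FRZB was above 0 for 17 of 17 chondrocyte genes, from 0.019 to 0.97 with a median of 0.91. SFRP5 had r = 0.88 with the same level (exact permutation p = 0.0060, adjusted 0.026) and rho = 0.74 (exact permutation p = 0.046, adjusted 0.17). Without Osteoarthritis 1 and 2 its r was 0.56 (exact permutation p = 0.25). With 6 libraries left, that p does not show that the relation was lost. For SFRP5, r was 0.87 after centring within groups (exact permutation p = 0.024) and 0.85 without Control 1 and 3 (exact permutation p = 0.044).

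SFRP2, SFRP4 and SFRP1 followed the mean level of the fibroblast genes, though not every gene of that list. For SFRP2, r was 0.88 (exact permutation p = 0.00030, adjusted 0.0045) and rho was 0.90 (exact permutation p = 0.0046, adjusted 0.046). Without Control 2 and Osteoarthritis 2, the farthest from the median, r was 0.89 (exact permutation p = 0.024), and after centring within groups it was 0.93 (exact permutation p = 0.0052). For SFRP4, r was 0.87 (exact permutation p = 0.0016, adjusted 0.0095) and rho was 0.79 (exact permutation p = 0.028, adjusted 0.14), with r = 0.84 without those libraries (exact permutation p = 0.051). For SFRP1, r was 0.81 (exact permutation p = 0.0096, adjusted 0.032) and rho was 0.83 (exact permutation p = 0.015, adjusted 0.092), and without those libraries r was 0.68 (exact permutation p = 0.14; 6 libraries left). For SFRP1, r was 0.81 after centring within groups (exact permutation p = 0.017) and 0.80 without Control 1 and 3 (exact permutation p = 0.053). Each of the 3 genes had r above 0 with 10 of 15 fibroblast genes, so the list did not move as one. Across single fibroblast genes, r ran from -0.61 to 0.94 for SFRP2, from -0.69 to 0.97 for SFRP4 and from -0.43 to 0.80 for SFRP1. With the chondrocyte level, r over 8 libraries was 0.29 for SFRP2, 0.26 for SFRP4 and 0.49 for SFRP1. Without Control 1 and 3 these were 0.73, 0.79 and 0.74, while r with the fibroblast level was 0.90 for SFRP2 and 0.92 for SFRP4. For FRZB with the fibroblast level, r was 0.32 over 8 libraries and 0.77 without Control 1 and 3. The lists were thus less distinct as companions in those 6 libraries.

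Against the osteocyte level, Control 1 and 3 formed a cluster of their own, at 2.24 and 2.19 on the mean log2 scale, against 5.09 to 6.63 in the Osteoarthritis libraries and 5.19 and 5.75 in Control 2 and 4. The 4 osteocyte relations among the 9 that passed (WIF1, DKK1, SOST and DKK3) span that gap, so only r within the other 6 libraries is described here. In these 2 Control libraries WIF1, DKK1 and SOST were at their lowest and DKK3 was highest. Other cell types set the same libraries apart. Summed osteoclast genes were at 11.2 and 19.1 CPM in Control 1 and 3, against 1311 to 2786 CPM in the other 6 libraries. Summed macrophage and myeloid genes were at 26.8 and 28.8 CPM, against 147 to 603 CPM, and summed osteoblast genes were at 1450 and 1508 CPM, against 4653 to 7288 CPM. With these libraries the osteocyte genes and the genes of these other cell types cannot be told apart as companions of the antagonists. Within the other 6 libraries r was 0.85 for WIF1 (exact permutation p = 0.019, rho = 0.89 with exact permutation p = 0.033), 0.79 for SOST (exact permutation p = 0.078, rho = 0.77 with p = 0.10), 0.67 for DKK1 (exact permutation p = 0.15, rho = 0.26 with p = 0.66) and -0.42 for DKK3 (exact permutation p = 0.46, rho = -0.14 with p = 0.80). In the same 6 libraries DKK3 had r = 0.77 with the fibroblast level (exact permutation p = 0.069, rho = 0.89 with p = 0.033). Its r with the chondrocyte level was 0.85 there (exact permutation p = 0.076). After adjustment over the 30 relations, none of these passed 0.05 (smallest adjusted p over all 30 of 0.083, exact permutation over 6 libraries).

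**Figure D4:**
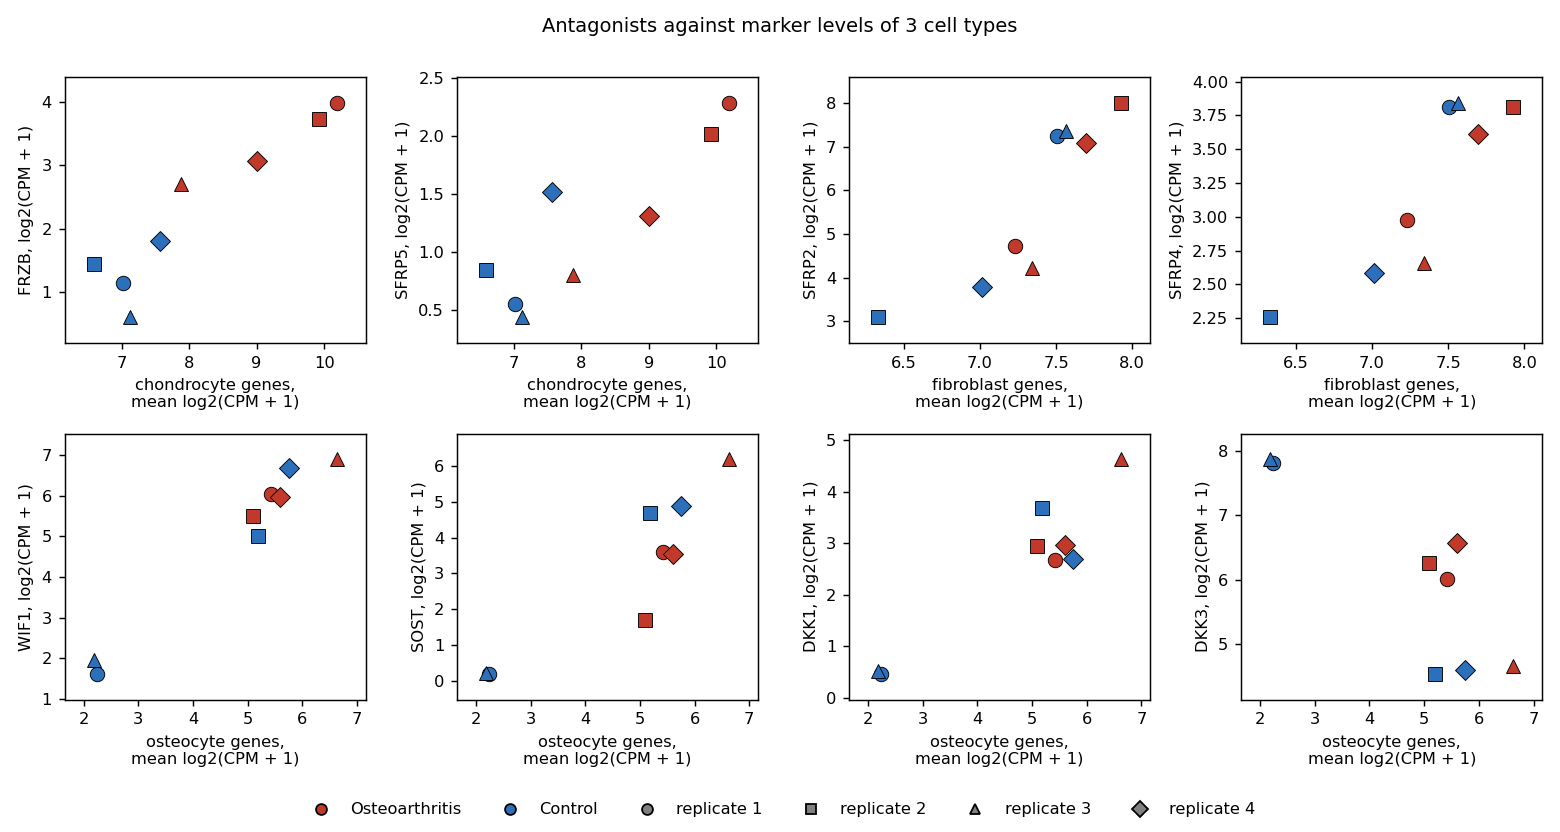
Level of selected antagonists against the mean level of a marker list, both as log2(CPM + 1), with 1 point per library (Osteoarthritis and Control by colour, replicate by marker shape). FRZB runs with the chondrocyte level and SFRP2 with the fibroblast level, while Control 1 and 3 lie apart from the other 6 libraries on the osteocyte axis.

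Among the antagonists themselves, 45 pairs were correlated over the 8 libraries. The closest were SFRP2 and SFRP4, with r = 0.99 (exact permutation p = 9.9e-05, adjusted 0.0045) and rho = 0.93 (exact permutation p = 0.0022, adjusted 0.0502). SFRP4 and DKK3 had r = 0.92 (exact permutation p = 0.0018, adjusted 0.022) and rho = 0.98 (exact permutation p = 0.00040, adjusted 0.018). Both held in the 6 libraries without Control 1 and 3, at r = 0.99 for SFRP2 with SFRP4 (exact permutation p = 0.0014) and 0.92 for SFRP4 with DKK3 (exact permutation p = 0.0097). DKK1 and WIF1, by contrast, had r = 0.21 in those 6 libraries (exact permutation p = 0.73).

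A search over 9681 well-expressed genes named those whose log2(CPM + 1) over the 8 libraries was most like each antagonist, as a description. The highest r of so many genes over 8 libraries is high by selection, so no link between genes is drawn from it. FRZB also separated the groups, and any gene that does so can have a high r with it. For FRZB they included CHST3, which sulphates the chondroitin chains of cartilage proteoglycans (r = 0.989), and PTGIS (r = 0.987). For SFRP2 they were ANOS1, MMP19 and BNC2, and for SFRP4 they were LRRC15, FMN1 and MMP19, so the protease MMP19 stood on both lists. For WIF1 they were NID1, DOCK8 and SMOX (r of 0.989 to 0.991), and for DKK3 they were AQP1, FHL3 and the Wnt receptor FZD1 (r of 0.988 to 0.991). For SOST they were ATP6V1B2, a subunit of the vacuolar proton pump, PELI2 and ST8SIA1 (r of 0.993 to 0.998). For DKK1 they were TRIB2, RHOBTB1 and BMI1. For WIF1, DKK3, SOST and DKK1 these r span the gap between Control 1 and 3 and the other libraries. SOST, for example, measured 0.153 and 0.176 CPM in Control 1 and 3, against 2.28 to 71.2 CPM in the others. A gap of this kind can give a high r by itself, and r without Control 1 and 3 is not given for these genes. SFRP1 was most like C14orf132, FHL1 and REV1, and SFRP5 was most like ZNF385C, BMP1 and ULK3. NOTUM had the weakest matches, CDPF1, KCTD5 and PIM1 (r of 0.849 to 0.888).

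The rest of the Wnt pathway, in 6 lists with 59 tested genes, gave 0 genes called changed by edgeR, and at an unadjusted p under 0.05 gave 10 higher ones and 7 lower ones, beside 7.52% and 7.65% of all genes. With DESeq2 11 of these genes were called, with limma-voom 0, and with its sample weights 25. Of 11 ligands and secretion factors, 4 were higher at an unadjusted p under 0.05, and their median log2 fold change was 0.42. WNT11 averaged 34.1 ± 24.5 CPM in Osteoarthritis and 5.39 ± 0.86 CPM in Control (SD, n = 4 each), a log2 fold change of 2.66 ± 0.58 (SE; edgeR adjusted p = 0.086) without overlap of the groups. WNT4 averaged 36.0 ± 26.7 CPM in Osteoarthritis and 6.91 ± 5.79 CPM in Control (SD, n = 4 each), a log2 fold change of 2.38 ± 0.82 (SE; edgeR adjusted p = 0.23). The ligand genes that passed the unadjusted threshold thus all lay on the same side as FRZB.

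Among 16 receptors and co-receptors 2 were higher at an unadjusted p under 0.05 (FZD7 and FZD9) and the median was 0.13, and among 7 R-spondin, LGR and ligase genes 2 were higher (RSPO4 and LGR4) and the median was 0.06. LGR5, the gene in the series title, did not pass the filter on low counts. The 5 other extracellular or membrane inhibitors gave no gene at an unadjusted p under 0.05, with a median log2 fold change of -0.43 (0.11 with library size as the sole scaling, where the median of all genes was 0.65). Of 11 target genes, whose transcripts rise when beta-catenin is active, the unadjusted threshold was passed by 1 that was higher and 4 that were lower, with a median of -0.39 (0.13 with library size alone). NKD2, a feedback inhibitor of the pathway, averaged 10.5 ± 4.70 CPM in Osteoarthritis and 46.9 ± 45.7 CPM in Control (SD, n = 4 each), a log2 fold change of -2.16 ± 0.74 (SE; edgeR adjusted p = 0.23). Of 9 genes of the beta-catenin core, 5 were above 0 and the median was 0.028, and the unadjusted threshold was passed by 1 higher gene and 3 lower genes. For 3 genes the Osteoarthritis libraries lay below all Control libraries, beside 5.52% of all genes. Among them DVL1, which relays the signal inside the cell, averaged 34.3 ± 15.8 CPM in Osteoarthritis and 85.9 ± 13.4 CPM in Control (SD, n = 4 each), a log2 fold change of -1.33 ± 0.34 (SE; edgeR adjusted p = 0.12).

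How the groups compared depended on the scale. In the deposited TPM, 1 signal recognition particle RNA gene took 17.6 to 22.8% of the total in Osteoarthritis libraries, against 34.7 to 45.0% in Control libraries, and 70.7% of all tested genes lay higher in every Osteoarthritis library than in any Control library, while 0.156% lay lower. By TPM 5 of 10 antagonists did so (FRZB, SFRP1, SFRP4, SFRP5 and DKK1), a smaller share than that of all genes. FRZB was at 9.75 to 16.4 TPM in Osteoarthritis libraries and at 0.1504 to 1.53 TPM in Control libraries. On the log2(TPM + 0.1) scale its mean difference was 4.45, against a median of 1.83 over all tested genes, while the CPM values gave 2.74 and 0.047. The direction of NOTUM and DKK3 differed between the scales, with 1.44 by TPM and -0.24 by CPM for NOTUM, and 1.56 by TPM and -0.32 by CPM for DKK3.

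**Figure D5:**
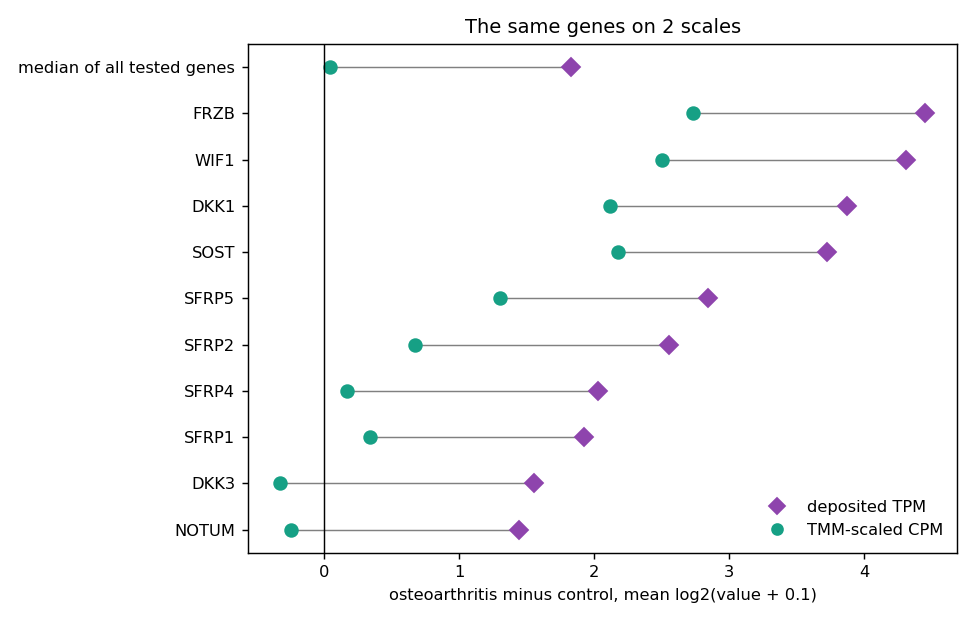
Mean log2 difference, Osteoarthritis minus Control, of each antagonist from the deposited TPM and from TMM-scaled CPM, each with a pseudocount of 0.1, beside the median over all tested genes. All 10 antagonists lie above 0 by TPM, where the median gene lies at 1.83, and NOTUM and DKK3 lie below 0 by CPM, where the median gene lies at 0.047.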

How the data were processed

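The labels describe total RNA from 8 libraries of condylar cartilage cells, depleted of ribosomal RNA and prepared with a kit that keeps strand. The authors deposited, for 18898 genes, estimated counts, TPM, log2 TPM and effective lengths in bases. On the build Sscrofa11.1, the submitters' processing notes name Salmon 1.1.0, STAR 2.7.9a and StringTie 2.1.0, beside Trim Galore 0.6.7, MultiQC 1.13 and DESeq2 1.26.0. What each tool did, and the strand setting, are not given in those notes. Estimated counts, as deposited, were whole numbers. The deposited TPM values equalled counts over effective length after rescaling, and were used to compare scales. The deposited log2 TPM columns were not used. Gene positions are from RefSeq on Sscrofa11.1.

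Groups came from the sample titles. The members and lists were chosen with earlier results of these data known. Low genes were removed with filterByExpr, libraries were scaled by TMM, and the groups were tested in edgeR 4.0.16 (R 4.3.3) by robust quasi-likelihood, with group as the sole term and Benjamini-Hochberg adjustment over the 16020 genes tested. The standard error is the size of the fold change over the square root of F. Correlations used log2(CPM + 1), all 40320 pairings of 8 libraries (720 of 6) and two-sided p-values (scipy 1.17.1). Scripts were tested on simulated data. Genes named were the 10 members, genes of the chondrocyte, fibroblast and osteocyte lists, up to 4 genes with the smallest p of each other list, and the 3 genes most like each member, of which 1 is not reported here. Depth sets the precision: 3 counts, the floor used, were 0.118 to 0.264 CPM per library before scaling. Alternatives used DESeq2 1.42.0, limma-voom (limma 3.58.1), other scalings and filters, effective-length offsets, protein-coding genes alone, the replicate number as a block, and fewer libraries. The offsets, the protein-coding subset, the fits and correlations without Control 1 and 3 and the pathway counts under alternatives were added after seeing the data. Member sequences are not used here.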

Additional observations from a re-analysis of the deposited data

Results flagged for a closer look

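In 20 sets of 4 libraries (10 antagonists in each group), Osteoarthritis 3 stood far from its group for a pair of genes. For DKK1 it measured 23.8 CPM, against 5.41 to 6.86 CPM in the other Osteoarthritis libraries, a gap of 0.92 of the whole range. For SOST it measured 71.2 CPM, against 2.28 to 11.07 CPM in the other Osteoarthritis libraries, a gap of 0.87 of the range. Both gaps exceed the 95% critical value of Dixon's test for 4 samples, and for normally distributed values chance flags about 1 set in 20. The test was run on CPM and not on log2 values, where a high value stands out less. The same library had the highest summed osteocyte level, 1173 CPM, against 412 to 495 CPM in the other Osteoarthritis libraries, and its part in the DKK1 and SOST values was not tested.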

How the results depend on the processing

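FRZB kept a log2 fold change above 0 under all 20 alternatives, and so did SFRP1, SFRP5, WIF1 and DKK1. Of the antagonists, 0 were called changed in the edgeR test. RLE scaling, library size alone, a filter of 1 CPM in 4 libraries and DESeq2 each called 1, limma-voom with sample weights called 4 (FRZB, WIF1, DKK1 and SOST), and leaving out 1 library gave 0 to 1. All genes changed numbered 99, against 214 with library size alone (where the median gene shifted to a log2 fold change of 0.65), 844 with DESeq2, 3329 with sample weights, 31 with Control 1 and 3 summed, and 14 to 152 when 1 library was left out (14 without Osteoarthritis 4, 17 without Osteoarthritis 1, 152 without Control 4). The pathway lists went to 4 calls with library size alone, 11 with DESeq2, 25 with sample weights, 1 with Control 1 and 3 left out and 0 to 2 with 1 library left out, against 0. The replicate number as a block left 1 gene changed and gave FRZB 2.80 (edgeR adjusted p = 0.23). Same-numbered libraries did not deviate together (correlations of deviations from the group means of -0.013, -0.12, -0.40 and -0.26), and no library matched its own number best. In Control, replicates 1 and 3 stood apart from 2 and 4, so these correlations cannot show whether same-numbered libraries share an origin. Without the pair of libraries farthest from the median, 0 of the 9 correlations past the threshold still passed. After centring within groups, and without Control 1 and 3, the count was also 0. Few pairings are left in those settings, so this does not show that the relations were lost. By TPM 13 passed. Over all 8 libraries, across the gap between Control 1 and 3 and the rest, the correlation of DKK3 with the osteocyte level was -0.85 by CPM and 0.083 by TPM. Log2 fold changes that turned round were NOTUM at 0.45 with library size alone, 0.26 with sample weights and 0.041 to 0.14 without Osteoarthritis 2, Osteoarthritis 3 or Control 4 (range with 1 library left out -0.60 to 0.14). SFRP2 was -0.77 with sample weights and -0.50 to -0.014 without Osteoarthritis 2, Control 2 or Control 4 (range -0.50 to 0.90). SFRP4 was -0.40 with sample weights and -0.22 to -0.098 without Osteoarthritis 2, Osteoarthritis 4, Control 2 or Control 4 (range -0.22 to 0.30). SOST was -0.72 without Osteoarthritis 3 (range -0.72 to 1.61) and -0.096 with Control 1 and 3 left out, where DKK3 was 1.54. The cause of these shifts was not tested. Low counts limit FRZB, SFRP5, NOTUM, SOST, DKK1 (5 counts in each of Control 1 and 3) and SFRP1 (10 counts in Control 2) in Control.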

Other observations

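Ratios of an antagonist to a marker gene within a library, chosen after values were seen, do not depend on the scaling factor. Of 10 such ratios the groups did not overlap in 1, near the 11.2% of all single genes by CPM. The share over ratios of other genes was not computed. DKK3 had 7.63 to 12.6 counts per 1000 counts of COL3A1, a collagen of fibrous tissue, in Osteoarthritis libraries, against 14.7 to 21.1 counts in Control libraries, although DKK3 itself differed about 10-fold among the Control libraries. A ratio shows unequal change and does not say which gene moved. The other ratios overlapped, among them SOST per 1000 counts of DMP1, an osteocyte matrix gene, at 11.9 to 111 in Osteoarthritis libraries and 27.4 to 48.9 in Control libraries. WIF1 had 184 to 280 counts per 1000 counts of DMP1 in Osteoarthritis libraries, against 52.2 to 647 counts in Control libraries.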
